A study of Mus musculus with 4 samples.

Results

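Adamdec1 fibroblasts of the mouse mid-colon were defined by their transcripts: a cell counted when it held at least 15 UMIs of Dcn, Col1a2 and Col3a1 in sum, no Ptprc, no Pecam1, fewer than 2 UMIs of Epcam, at least 2 UMIs of Adamdec1, and fewer than 2 UMIs each of the sums Kcnn3+Fibin and Bmp5+Bmp7+Sox6. A UMI (unique molecular identifier) marks 1 captured transcript. The rule found 1131 Adamdec1 fibroblasts among 10024 cells that passed the collagen, Ptprc, Epcam and Pecam1 steps (gated fibroblasts) and 44356 kept cells. They numbered 241 and 221 in the control libraries and 426 and 243 in the DSS libraries, and values below follow that order: control 1, control 2, DSS 1, DSS 2. The mid-colon tissue was taken at 7 weeks of age from SPF animals (free of specific pathogens). Controls had clean water to drink, and DSS libraries came from animals given 3% dextran sulfate sodium, a polysaccharide that injures the colonic lining, for 2 days. The question is which transcripts of these fibroblasts differ early in chemical injury. The labels do not say that libraries of a group came from separate mice, so p-values measure the spread between libraries, which may be technical, and they name no strain or sex.

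Lamina propria fibroblasts lie in the loose tissue beneath the epithelium, where they lay down matrix, send growth factors to the crypts and attract immune cells. Adamdec1 encodes a secreted metalloprotease of the ADAM family, and mice that lack it are known to be more sensitive to DSS colitis. Cxcl12 and Cxcl13 encode chemokines that attract lymphocytes, and Igfbp3 encodes a carrier protein that binds insulin-like growth factors. In GRCm38 (GENCODE M21), Adamdec1 lies on the minus strand at chr14:68563380-68582095, Cxcl12 on the plus strand at chr6:117168535-117181367, Cxcl13 on the plus strand at chr5:95956951-95961068 and Igfbp3 on the minus strand at chr11:7206086-7213923.

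The Adamdec1 fibroblasts had a median depth of 3140, 4378, 4730 and 3801 UMIs per cell and summed to 762481, 991660, 1994481 and 957821 UMIs. Predicted doublets made up 2, 1, 3 and 5 of them. Library pairs shared 36 to 52 cell barcodes, and no Adamdec1 fibroblast shared its barcode with one of another library. Control 1 stood apart from the other 3 libraries. Its Adamdec1 fibroblasts held 8377 CPM (UMIs scaled to 1000000 UMIs of the summed cells) of immediate early and heat shock genes in sum, against 37330, 32590 and 41610 CPM in the others. Transcripts of other cells were present at levels that differed between libraries. A list of 12 epithelial markers summed to 1386, 1698, 555 and 1086 CPM, and 9 B and plasma cell markers summed to 729, 12290, 7179 and 1332 CPM. All 5 neutrophil markers were at 0, the 6 blood endothelial markers summed to at most 17.8 CPM and the 5 glia markers to at most 8.07 CPM.

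The 3 marker genes that were not part of the rule had higher summed levels than in the other gated fibroblasts. Cxcl12 stood at 2182, 1621, 1920 and 2710 CPM, against 506, 480, 509 and 702 CPM in the other gated fibroblasts. Igfbp3 stood at 2968, 1238, 1302 and 539 CPM, against 336, 182, 271 and 94.4 CPM. Cxcl13 stood at 334, 101, 350 and 382 CPM, against 83.9, 17.3, 64.0 and 55.3 CPM. This held within every library and is a description, since the cells were chosen by their transcripts.

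The markers differed in how many cells carried them. With each cell thinned to 3000 UMIs, which left 139, 172, 335 and 184 Adamdec1 fibroblasts, Cxcl12 was detected in 92.8%, 84.9%, 80.3% and 88.0% of them (95%, 90%, 87.6% and 91.8% of all of them before thinning). Igfbp3 was detected in 87.1%, 65.7%, 64.2% and 43.5% (89.6%, 72.9%, 69.7% and 48.6% before thinning). Cxcl13 was detected in 24.5%, 9.30%, 24.2% and 14.1% (25.3%, 13.1%, 28.2% and 14% before thinning). Epithelial cells were those with at least 2 UMIs of Epcam, no Ptprc and no UMI of Dcn, Col1a2 or Col3a1. Thinned in the same way, they showed Cxcl12 in 0.748%, 1.16%, 0.234% and 1.09%, Igfbp3 in 0.618%, 0.178%, 1.17% and 0.291%, and Cxcl13 in 0.130%, 0.312%, 0.701% and 0.218%. The choice removed cells that held these fibroblast transcripts, so the shares may understate free fibroblast RNA. The median depth of the epithelial cells before thinning was 13150, 8121, 16300 and 12880 UMIs. Cxcl13 was therefore a transcript of a minority: the 10% of Adamdec1 fibroblasts richest in it held 72.9%, 93.0%, 76.3% and 97.3% of its UMIs.

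Across the Adamdec1 threshold, Cxcl12 and Igfbp3 dropped in every library, and Cxcl13 dropped in control 2 and DSS 1 and not in control 1 or DSS 2. Cells with exactly 2 UMIs of Adamdec1 numbered 22, 15, 39 and 30 and held Cxcl12 at 1640, 1260, 1310 and 2470 CPM. Cells just outside, with 1 UMI of Adamdec1, numbered 40, 40, 60 and 74 and held Cxcl12 at 620, 635, 588 and 1110 CPM. Igfbp3 stood at 3260, 665, 799 and 496 CPM just inside and at 613, 239, 513 and 123 CPM just outside. Cxcl13 stood at 248, 119, 467 and 38.2 CPM just inside and at 252, 100, 64.2 and 87.7 CPM just outside. At the collagen threshold, 13, 11, 23 and 22 cells lay just inside (sums of 15 to 19), with Cxcl12 at 568, 440, 277 and 1340 CPM, and 7, 19, 21 and 23 cells with the same other features lay just outside (sums of 10 to 14), with Cxcl12 at 771, 426, 438 and 1570 CPM, so the levels on the 2 sides overlapped. The last steps of the rule removed many Adamdec1 positive cells. Among gated fibroblasts, 420, 409, 808 and 650 held at least 2 UMIs of Adamdec1, and 377, 327, 697 and 470 were left after the Kcnn3+Fibin step and 241, 221, 426 and 243 after the Bmp5+Bmp7+Sox6 step. The other gated fibroblasts thus include Adamdec1 positive cells.

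**Figure D1:**
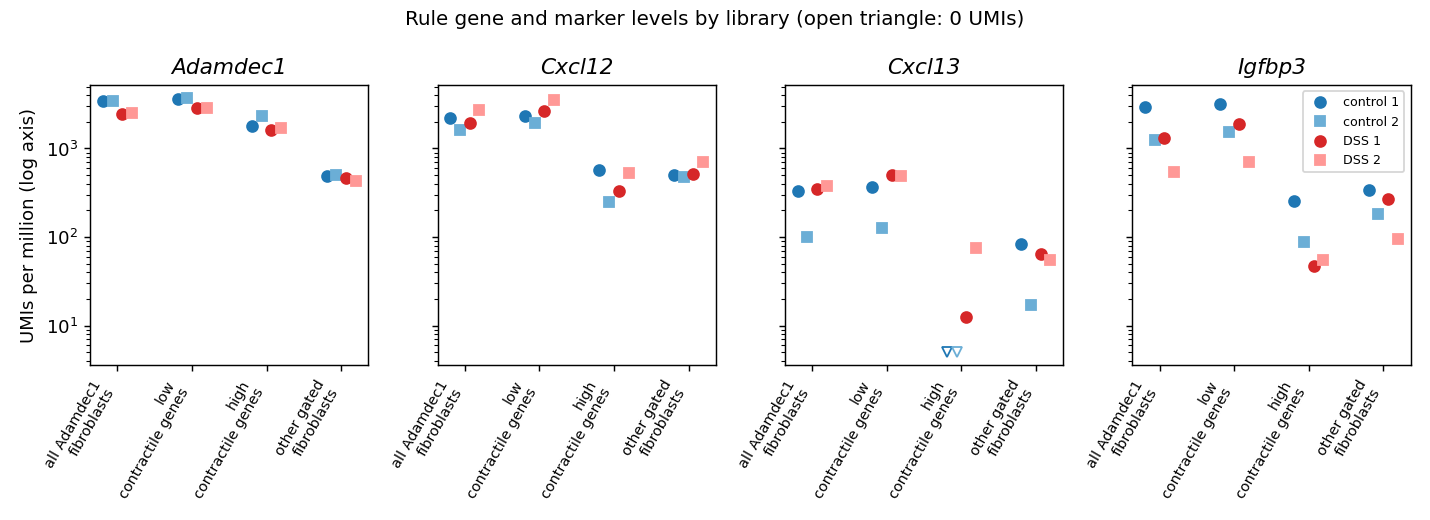
Level of Adamdec1 and of the markers Cxcl12, Cxcl13 and Igfbp3 in CPM (log axis) in the summed cells of each of the 4 libraries (1 point each, blue for control and red for DSS), for all Adamdec1 fibroblasts, those with low and with high contractile genes, and the other gated fibroblasts. Cxcl12 lay between 1621 and 2710 CPM in the Adamdec1 fibroblasts and between 247 and 579 CPM in those with high contractile genes.

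The label of lamina propria fibroblast did not hold for all of these cells. A set of 222 of the 1131 cells (19.6%) held at least 10 UMIs in sum of Acta2, Tagln, Myh11 and Actg2, which encode contractile proteins of smooth muscle. They numbered 16, 41, 111 and 54, or 6.64%, 18.6%, 26.1% and 22.2% of the Adamdec1 fibroblasts, with exact binomial intervals of 3.84% to 10.6%, 13.7% to 24.3%, 21.9% to 30.5% and 17.2% to 28.0%. The share was lowest in control 1, and the interval of control 2 overlapped those of both DSS libraries. In the other gated fibroblasts the same threshold marked 8.13%, 5.74%, 11.7% and 3.17%. The threshold lay in a gap: only 1, 4, 8 and 9 cells held sums of 5 to 19 UMIs.

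These contractile cells were low in the markers. Cxcl12 stood at 579, 247, 332 and 523 CPM in them and at 2325, 1955, 2656 and 3493 CPM in the rest. Igfbp3 stood at 257, 87.6, 47.5 and 55.5 CPM against 3209, 1518, 1884 and 712 CPM. Pdgfra, the receptor for platelet-derived growth factor that marks many gut fibroblasts, stood at 64.3, 46.4, 41.2 and 27.7 CPM against 358, 339, 545 and 458 CPM. They were high in Hhip, which encodes an inhibitor of hedgehog ligands, at 1816, 3436, 915 and 480 CPM against 37.1, 62.7, 17.6 and 24.1 CPM. Adamdec1 was present in both, at 1800, 2329, 1624 and 1684 CPM in the contractile cells and 3580, 3741, 2833 and 2838 CPM in the rest. They are called contractile Adamdec1 cells here, after their leading genes, and the fold changes, shares and differences of effect below were also computed without them.

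**Figure D2:**
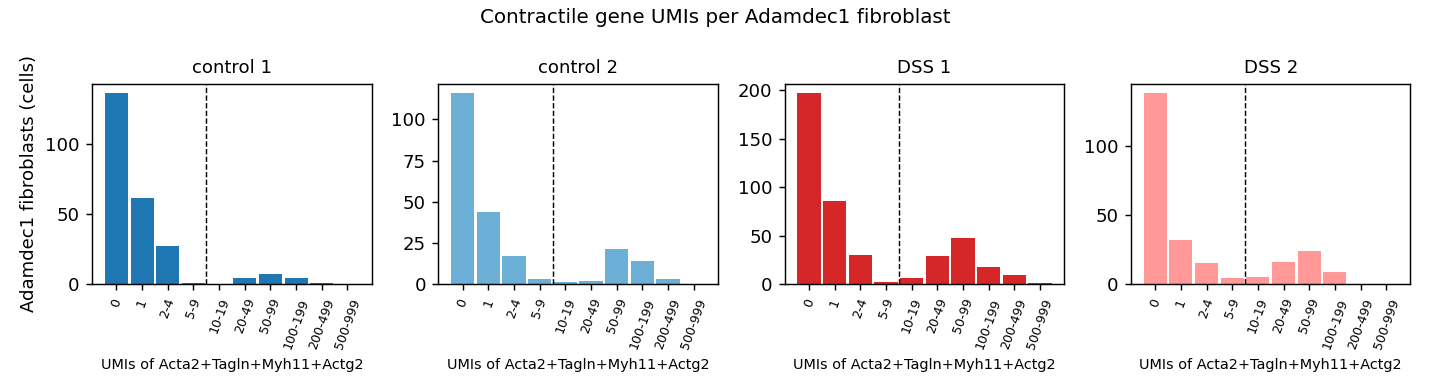
Number of Adamdec1 fibroblasts (vertical axis) by their summed UMIs of Acta2, Tagln, Myh11 and Actg2 (horizontal axis, unequal bins), 1 panel for each of the 4 libraries, with the threshold of 10 UMIs as a broken line. Few cells lay near the line, and 16, 41, 111 and 54 cells lay to its right.

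Clustering of the Adamdec1 fibroblasts gave 5 clusters, of which 4 were nearly libraries. Cluster 1 held 315 cells of DSS 1 among its 323, cluster 2 held 219 of control 1 among its 225, cluster 4 held 178 of control 2 among its 194 and cluster 5 held 169 of DSS 2 among its 170. Cluster 3, with 219 cells, drew on all libraries (16, 39, 109 and 55 cells) and was led by Tagln, Myh11, Acta2, Actg2, Lmod1, Myl9, Cnn1, Hhip, Tpm2 and Mylk. The leading genes of cluster 1 included the immunoglobulin genes Iglc2, Igkc and Igha, and those of cluster 4 the epithelial genes Aqp8 and Spink4, which are transcripts of other cell types. Cluster 5 was led by Cxcl1, Tnfaip3, Il6, Ptgs2 and Ccl7, and cluster 2 by Cdc42ep2, Mptx1, Clec3b, Igfbp3 and Igfbp6. Apart from the contractile cells, clusters thus separated by library.

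Beyond the markers, a set of genes set Adamdec1 fibroblasts apart from the other gated fibroblasts within each library, as a description with no test. Of the 20 genes with a mean of at least 100 CPM over the libraries and the highest smallest ratio over the 4 libraries, Adam23, which encodes a disintegrin without protease activity, was 6.1 to 8.35 times higher. Tnfsf13b, which encodes BAFF, a survival factor for B cells, was 5.30 to 8.56 times higher, at 182, 193, 220 and 208 CPM. Edil3, an integrin-binding matrix protein, was 5.23 to 14.7 times higher, and Fgf10, a growth factor for epithelium, was 4.53 to 6.65 times higher. Col15a1, a basement membrane collagen, was 3.25 to 5.06 times higher. The set also held Hpse, Scube1, Spon1, Slco2b1, Tmem176a, Tmem176b, Serpina3g, Serpina3n, St6galnac5 and Enho. Cxcl9 met the same criteria only through its level in DSS, since it stood at 2.62 and 80.7 CPM in the controls. The control means of Edil3 (107.5, 91.8, 174.5 and 149 CPM) and Serpina3g (110, 71.6, 71.2 and 192 CPM) also lay below 100 CPM.

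Genes of other fibroblast kinds were low. Pi16, a marker of adventitial fibroblasts, was 24.1 to 50.5 times lower than in the other gated fibroblasts, and Gdf10, a ligand of the BMP family, 30.9 to 62.3 times lower. Pcolce2, Ackr4, Ebf1, Inmt, Scara5 and Cilp were also among the 20 lowest. Has1, a hyaluronan synthase that other gated fibroblasts of control 2 and DSS 2 carried at 1057 and 1321 CPM, stood at 2.62, 119, 30.1 and 205 CPM, which was 5.93 to 18.8 times lower. Cells with at least 2 UMIs of Has1 and Tnfaip6 in sum made up 2.91%, 24.9%, 12.9% and 41.6% of the Adamdec1 fibroblasts, so these genes were high in control 2 and DSS 2 and did not separate the groups.

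The share of Adamdec1 fibroblasts did not separate control from DSS. Of gated fibroblasts they made up 14.2%, 13.8%, 14.9% and 6.28%, with exact binomial intervals of 12.6% to 16.0%, 12.2% to 15.6%, 13.6% to 16.2% and 5.54% to 7.10%, which cover counting error only. The means were 14% ± 0.28 in control and 10.6% ± 6.06 in DSS (SD, n = 2 libraries each), a difference of -3.47 percentage points (exact two-sided permutation p = 1, where 2 libraries against 2 allow no p below 0.33). DSS 2 alone was low, and without it the difference was 0.822 points. Of all kept cells they made up 2.59%, 2.06%, 3.54% and 1.98%, with means of 2.32% ± 0.374 and 2.76% ± 1.10 (difference 0.441 points, exact permutation p = 1). Without DSS 1 that difference was -0.337 points, with at most 10% mitochondrial UMIs it was -0.108 points, and without the contractile cells it was 0.0356 points. The level of Adamdec1 over all gated fibroblasts, which the choice of cells did not fix, was 827, 872, 717 and 558 CPM. It was lower in both DSS libraries, with a log2 fold change of -0.31 ± 0.327 (SE, edgeR adjusted p = 1), so it was not distinguishable from the spread between libraries.

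**Figure D3:**
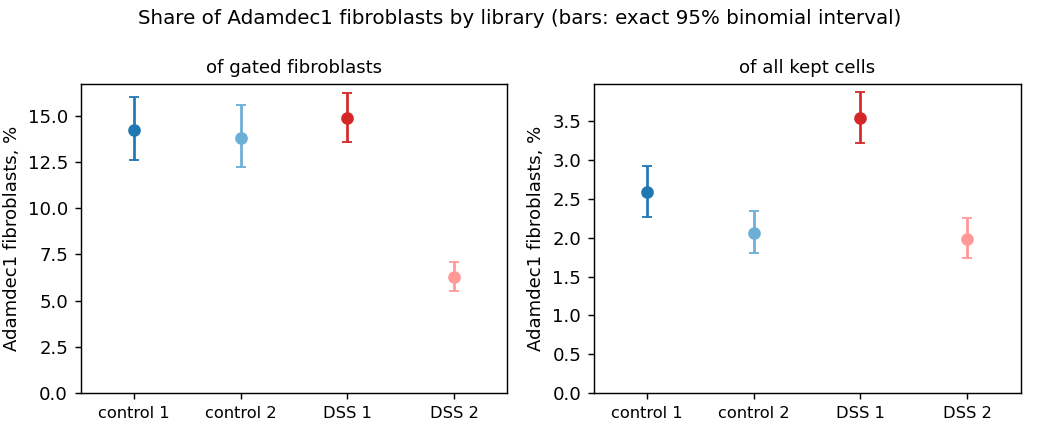
Share of Adamdec1 fibroblasts (vertical axis, %) among gated fibroblasts (left) and among all kept cells (right) in each of the 4 libraries, with exact 95% binomial intervals as bars. Of gated fibroblasts, 3 libraries lay between 13.8% and 14.9% and DSS 2 at 6.28%.

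Within the Adamdec1 fibroblasts, no gene passed the adjusted edgeR test. Among genes whose groups were separated, Iigp1, Saa3, Apoe, Phlda1, Ier3 and Adamts4 stood higher after 2 days of DSS. Igfbp6, Gli1, Fbln2 and Mfap5 stood lower, as did Spink4, Agr2, Oit1 and Muc2, which are known as epithelial genes. All of these are examples picked from many separated genes. UMIs were summed per library and tested with the quasi-likelihood F test of edgeR. Of 9212 genes tested, 0 passed an adjusted p of 0.05 (0% in either direction; the smallest adjusted p was 0.0932), and 350 (3.80%) had an unadjusted p under 0.05. DESeq2 called 11 of 7426 genes (0.148%), of which 6 were higher (0.0808%) and 5 lower (0.0673%). They were Phlda1, Apoe, Adamts4, Ier3, Iigp1 and Saa3 higher, and Spink4, Agr2, Igfbp6, Oit1 and Muc2 lower. Both DSS libraries lay above both controls for 850 genes (9.23%) and below both for 1847 genes (20%), and counts of separated genes below are read against those shares. Each fold change below is on the log2 scale, DSS relative to control. Every SE of a fold change or difference of effects is its absolute value divided by the square root of the edgeR F statistic. The median fold change over all genes tested was 0.02 (-0.087 without TMM scaling, a shift of 0.104). Of all genes tested, 52.2% had a fold change above 0, and such counts of the lists are read against that share. The gene lists were chosen with earlier results of these data known. Their counts and medians therefore describe the lists and do not test them. In bulk sums of a cell class, fewer cells that use a gene and less RNA of it per cell cannot be told apart.

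**Figure D4:**
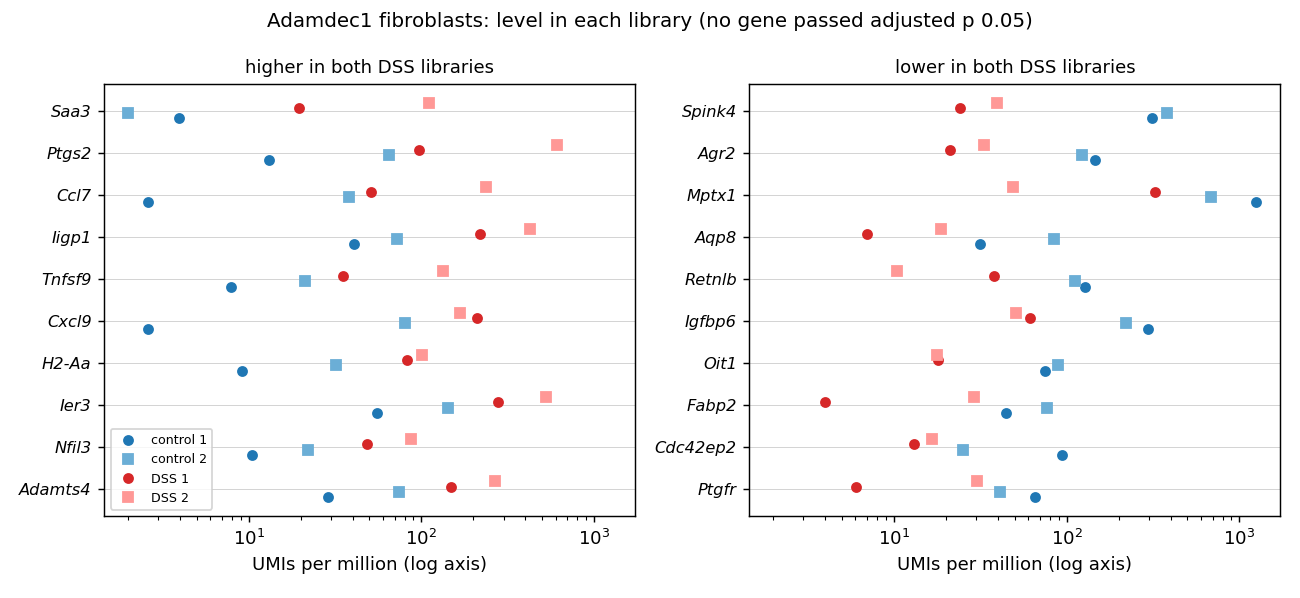
Level in CPM (log axis) of the 10 genes with the largest log2 fold change in each direction, among genes with unadjusted p under 0.05, at least 50 CPM in the higher group and no overlap between groups, 1 point for each of the 4 libraries of Adamdec1 fibroblasts. Genes on marker lists of other fibroblast kinds and cell types were left out. Control 1 was the lowest library for 9 of the 10 genes on the left, and DSS 2 was the highest for 9 of them.

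Interferon gamma acts through transcription factors that bind the GAS and ISRE elements of promoters and switch on GTPases that attack intracellular microbes, genes of antigen presentation and the feedback inhibitor SOCS1. Of 29 genes of interferon gamma response and antigen presentation, 25 passed the filter on low counts. Of these, 23 had a fold change above 0, 16 had both DSS libraries above both controls (9.23% of all genes did), 15 had an unadjusted p under 0.05, all of them higher, and 0 passed the adjusted test. The median log2 fold change was 1.18, against 0.02 over all genes. It was 0.99 without control 1 and 1.13 without the contractile cells. As this list was chosen with earlier results of these data known, these values are a description and no test of enrichment.

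Iigp1, an interferon-inducible GTPase, stood at 40.7, 72.6, 218 and 427 CPM. Both DSS libraries lay well above both controls, and the log2 fold change was 2.58 ± 0.433 (edgeR adjusted p = 0.390, DESeq2 adjusted p = 0.000477). It was 2.24 without control 1, 2.62 without the contractile cells and 2.20 in the other gated fibroblasts. Irf1, a transcription factor of this response, stood at 68.2, 117, 127 and 389 CPM (1.54 ± 0.509; 0.62 without DSS 2), so control 2 and DSS 1 were close and DSS 2 was high. Gbp2, a guanylate-binding GTPase, stood at 39.4, 90.8, 127 and 320 CPM (1.85 ± 0.503; 1.13 without DSS 2), in the same order.

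Of the genes of feedback and antigen presentation, some were separated and the class I genes were not. Socs1 stood at 9.18, 9.08, 31.6 and 32.4 CPM (1.90 ± 0.411), with libraries of a group nearly equal. Levels this low rest on few UMIs, so the near equality within a group may be counting error. Igtp, another GTPase, stood at 9.18, 19.2, 37.6 and 64.7 CPM (1.88 ± 0.447). Tap1, which carries peptides into the endoplasmic reticulum, stood at 17.1, 29.2, 58.7 and 88.7 CPM (1.73 ± 0.366). The class II antigen presentation gene H2-Aa stood at 9.18, 32.3, 82.7 and 100 CPM (2.19 ± 0.459), with control 1 lowest. Without predicted doublets, of which there were 2, 1, 3 and 5, its fold change was 1.27 ± 0.695 and its unadjusted edgeR p was 0.105. H2-Eb1 stood at 14.4, 34.3, 60.7 and 68.9 CPM (1.48 ± 0.391). Class II genes are also carried by macrophages and dendritic cells. The 11 markers of those cells summed to 39.4, 50.4, 138 and 67.9 CPM, with Ptprc at 0 by the rule, and their part in the class II values was tested no further than by leaving out predicted doublets. The class I genes H2-K1 and B2m were near equal, at 438, 538, 391 and 568 CPM (0.07 ± 0.353) and at 1023, 815, 862 and 951 CPM (0.07 ± 0.378).

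Promoters are shown because 16 of the 25 genes of this list were separated in the same direction. For 20 of the 25 genes RefSeq (GRCm38.p6) gave a window of 250 bases before to 50 after the start. On either strand, an ISRE (the letters GAAA, then any 2 bases, then GAAA) lay in 9 of the 20 (45%) and in 3.99% of all 27025 genes with a window: B2m, Gbp2, Gbp3, Gbp5, Gbp7, Igtp, Irgm1, Irgm2 and Socs1. A GAS element (TTCNNNGAA) lay in 7 of the 20 (35%) and in 9.55% of all genes: Gbp5, Gbp7, Igtp, Irf1, Irf8, Irgm2 and Psmb8. These are matches of letters in a window, not measured binding sites. The list was made up of genes of interferon gamma response and antigen presentation, so its shares describe that choice of genes and not the DSS difference. The holders include B2m, whose levels were near equal (values above). Whether separated genes held these elements more often than the other genes of the list was not tested. Printed are the 150 bases before the start, 5′ to 3′ on the gene's strand, of Irf1 (plus strand, chr11:53769864-53770013), Socs1 (minus strand, chr16:10785537-10785686) and Igtp (plus strand, chr11:58199406-58199555), with capitals on the GAS element of Irf1, on a pair of overlapping ISREs of Socs1, and on the GAS element and then the ISRE of Igtp.
Irf1: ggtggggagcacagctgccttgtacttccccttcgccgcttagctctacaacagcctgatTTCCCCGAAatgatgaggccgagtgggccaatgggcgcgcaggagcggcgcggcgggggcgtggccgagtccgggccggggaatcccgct
Socs1: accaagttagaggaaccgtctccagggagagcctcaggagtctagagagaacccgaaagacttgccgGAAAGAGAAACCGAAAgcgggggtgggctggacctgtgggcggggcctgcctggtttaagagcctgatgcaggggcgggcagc
Igtp: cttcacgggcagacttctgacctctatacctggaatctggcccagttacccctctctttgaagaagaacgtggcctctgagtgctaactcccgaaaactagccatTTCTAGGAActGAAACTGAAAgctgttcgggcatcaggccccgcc

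Genes of the type I interferon response showed a smaller difference, and few of them were separated. Of 29 genes, 19 were tested, 12 had a fold change above 0, 3 had both DSS libraries above both controls and the median was 0.23. Isg15, a ubiquitin-like protein of antiviral defence, stood at 11.8, 14.1, 28.6 and 33.4 CPM (1.33 ± 0.390). Ifit3, an antiviral RNA-binding protein, stood at 17.1, 42.4, 7.52 and 23.0 CPM (-0.996 ± 0.588), with overlapping groups.

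NF-kB is the transcription factor that inflammatory cytokines such as interleukin 1 and tumor necrosis factor activate, and its targets include its own inhibitors, adhesion molecules and acute phase proteins. Of 24 genes of this list, 23 were tested, all 23 had a fold change above 0, and 9 had both DSS libraries above both controls. The median was 1.07, 0.68 without control 1 and 1.23 without the contractile cells, and 0 passed the adjusted test. Without control 1, 21 of 23 had a fold change above 0 and 3 instead of 10 had an unadjusted p under 0.05. Saa3, an acute phase protein, stood at 3.94, 2.02, 19.6 and 111 CPM (4.46 ± 0.955, edgeR adjusted p = 0.621, DESeq2 adjusted p = 0.0038), with both DSS libraries above and DSS 2 highest by far; without DSS 2 the fold change was 2.88. Nfkbia, the inhibitor of NF-kB, stood at 139, 347, 318 and 823 CPM (1.32 ± 0.536; 0.56 without DSS 2). Its groups overlapped, and control 2 and DSS 1 were close. Icam1, an adhesion molecule for leukocytes, stood at 110, 188, 205 and 470 CPM (1.26 ± 0.442; as low as 0.62 with 1 library left out), separated by a narrow margin.

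The chemokines differed in which libraries were high. Of 18 chemokines 14 were tested, 11 had a fold change above 0, 5 had both DSS libraries above both controls, and the median was 0.99 (0.84 without control 1). Cxcl12 (values above) had a log2 fold change of 0.36 ± 0.442 and Ccl11, which attracts eosinophils, stood at 1212, 1103, 548 and 1200 CPM (-0.33 ± 0.446), both with overlapping groups. Cxcl1, which attracts neutrophils, stood at 51.1, 120, 97.8 and 984 CPM (2.71 ± 0.884; 0.36 without DSS 2), and Ccl2, which attracts monocytes, at 7.87, 149, 134 and 547 CPM (2.19 ± 0.973; 0.94 without DSS 2, 5.43 without control 2). For both, DSS 2 was far above the rest, and control 2 lay above DSS 1.

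Some of these levels rested on few cells. Ccl7, which also attracts monocytes, stood at 2.62, 38.3, 51.1 and 238 CPM (2.81 ± 0.881; 1.43 without DSS 2, 5.73 without control 2) and was detected in 0.830%, 4.53%, 5.40% and 20.2% of Adamdec1 fibroblasts. Cxcl9, which attracts T cells and is a target of interferon gamma, stood at 2.62, 80.7, 209 and 167 CPM (2.27 ± 0.838) and was detected in 0.415%, 1.81%, 2.11% and 1.24%. After thinning, Ccl7 was detected in 2.91%, 4.48% and 17.9% of them in control 2, DSS 1 and DSS 2 and in 0 of 139 in control 1 (exact upper limit 2.62%). Thinned epithelial cells, chosen without Dcn, Col1a2 and Col3a1, showed Ccl7 in 0.260% to 1.60%. Cxcl9 was detected in at most 0.134% of thinned epithelial cells. The fold change of Cxcl9 was 1.34 without control 1 and 6.17 without control 2. Of the marker Cxcl13, both DSS libraries lay above both controls (0.82 ± 0.532), by a narrow margin over control 1, and the fold change was 1.97 without control 1 and 0.18 without control 2.

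The immediate early and heat shock genes, which respond within minutes to stimulation and to tissue dissociation, followed 1 library more than the groups. All 30 genes tested had a fold change above 0, with a median of 0.88, but without control 1 the median was 0.28 and 21 of 31 genes tested had a fold change above 0. Fos, a subunit of the transcription factor AP-1, stood at 1032, 4575, 5369 and 4339 CPM (0.93 ± 0.667). Control 1 alone was low. Ptgs2, the inducible enzyme of prostaglandin synthesis, stood at 13.1, 64.5, 97.3 and 609 CPM (3.22 ± 0.870; 2.52 without control 1, 4.75 without control 2 and 1.47 without DSS 2). Ier3, an early response gene, stood at 55.1, 143, 276 and 529 CPM (2.11 ± 0.490; 1.58 without control 1; DESeq2 adjusted p = 0.0364). Both genes were separated, with control 1 lowest and DSS 2 highest. Tnfsf9, the ligand of the T cell receptor 4-1BB, stood at 7.87, 21.2, 35.1 and 134 CPM (2.52 ± 0.655; 1.39 without DSS 2), and Nfil3, a transcription factor, at 10.5, 22.2, 48.6 and 86.7 CPM (2.08 ± 0.435), in the same order of libraries.

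**Figure D5:**
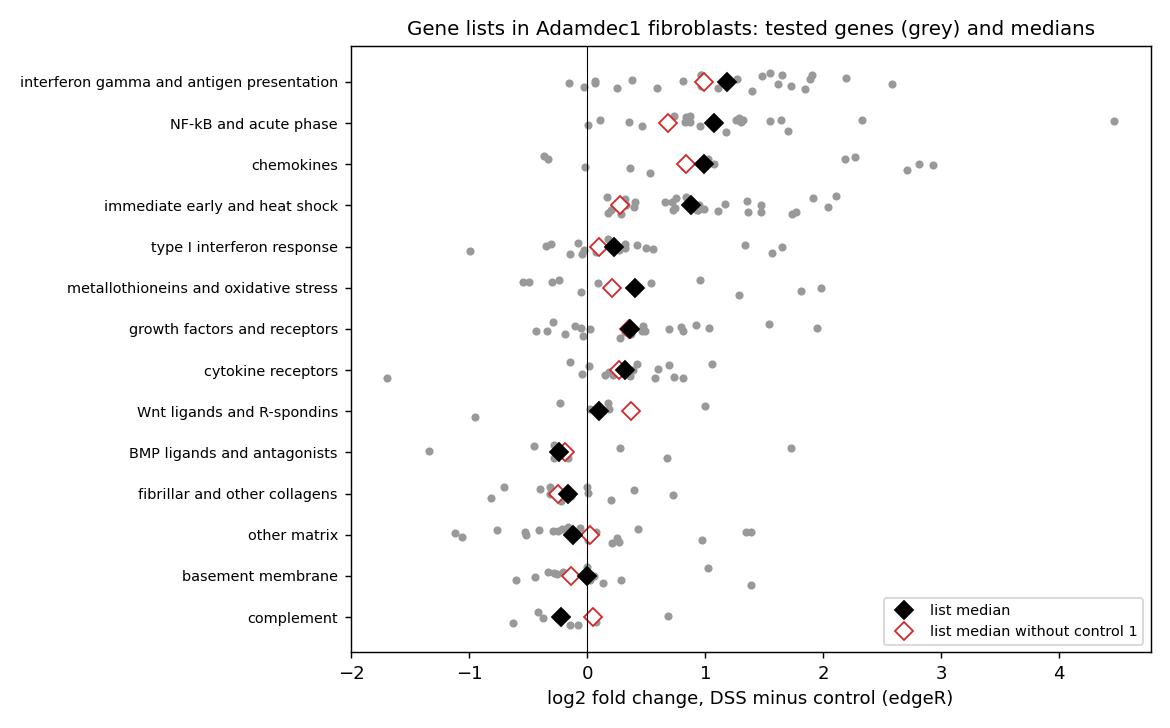
Log2 fold change of DSS over control in Adamdec1 fibroblasts (horizontal axis, edgeR) for the tested genes of 14 lists (grey points), with the list median over 4 libraries (black) and without control 1 (open red). The median of interferon gamma and antigen presentation genes moved from 1.18 to 0.99 and that of immediate early and heat shock genes from 0.88 to 0.28.

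Apoe and Phlda1 had close values within each group and separated groups. Apoe, a carrier of lipids (minus strand, chr7:19696109-19699188), stood at 195, 194, 542 and 674 CPM. The controls were nearly equal and both DSS libraries lay above them, with a log2 fold change of 1.74 ± 0.344 (edgeR adjusted p = 0.621, DESeq2 adjusted p = 0.0139). It lay between 1.64 and 1.82 when any library was left out and was 1.99 without the contractile cells. In the other gated fibroblasts Apoe stood at a mean of 200 CPM in control and 192 CPM in DSS (0.04). The difference between the effects in Adamdec1 fibroblasts and in all other gated fibroblasts was not tested. Phlda1, a protein of stress and growth signals, stood at 167, 184, 470 and 510 CPM (1.58 ± 0.330, DESeq2 adjusted p = 0.0473). The metallothioneins Mt1 and Mt2, which bind zinc and copper, stood at 363, 640, 980 and 2341 CPM (1.81 ± 0.507) and at 51.1, 135, 229 and 464 CPM (1.98 ± 0.497), separated and highest in DSS 2. Of the list of metallothioneins and oxidative stress, 8 of 13 genes had a fold change above 0.

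Of 25 growth factors and receptors, 22 were tested, 15 had a fold change above 0, 5 had both DSS libraries above both controls, and the median was 0.36. Nrg1, a ligand of ERBB receptors, stood at 13.1, 33.3, 58.2 and 116 CPM (1.94 ± 0.467; 1.46 without control 1), and in the other gated fibroblasts its fold change was 3.47. Fgf7, a growth factor for epithelial cells, stood at 57.7, 61.5, 83.7 and 112 CPM (0.80 ± 0.301), and Fgf10 at 132, 135, 94.8 and 141 CPM (-0.10 ± 0.315). Rspo3, which amplifies Wnt signals to crypt stem cells, stood at 34.1, 45.4, 62.7 and 87.7 CPM (1.00 ± 0.318), with both DSS libraries above. Of the 10 Wnt ligands and R-spondins 6 were tested, with a median of 0.10, and Wnt2 stood at 36.7, 16.1, 12.5 and 12.5 CPM (-0.95 ± 0.504).

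Genes of BMP signalling, which restrains crypt proliferation, had small fold changes, mostly below 0. Of 14 genes 9 were tested, 3 had a fold change above 0, 6 had both DSS libraries below both controls (20% of all genes did), and the median was -0.24. Chrd, an antagonist, stood at 19.7, 26.2, 7.02 and 10.4 CPM (-1.34 ± 0.446), Bmp4 at 1056, 881, 814 and 809 CPM (-0.16 ± 0.374), and Grem1, another antagonist, at 245, 481, 325 and 495 CPM (0.27 ± 0.403) with overlapping groups.

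Igfbp6 was among the genes with the largest fold changes below 0. Epithelial cells, which were chosen without Dcn, Col1a2 and Col3a1, carried Igfbp6 at 1.70, 3.94, 2.62 and 2.42 CPM. It encodes a binding protein with preference for insulin-like growth factor 2 and lies on the plus strand at chr15:102144362-102149511. It stood at 298, 221, 61.7 and 51.2 CPM, so both DSS libraries were well below both controls. The log2 fold change was -2.09 ± 0.352 (edgeR adjusted p = 0.390, DESeq2 adjusted p = 0.0038), -1.84 without control 1, -1.87 without the contractile cells and -0.79 in the other gated fibroblasts. Igfbp3, a marker of these cells, had a fold change of -1.09 ± 0.610 with overlapping groups, since control 2 and DSS 1 were close at 1238 and 1302 CPM, and -0.29 without control 1. The list of IGF-binding proteins had 5 genes tested and a median of -0.53, which was -0.01 without control 1.

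Matrix genes had small fold changes, more of them below 0 than above with all libraries and cells. Of 16 collagens 14 were outside the rule and 13 were tested, of which 4 had a fold change above 0, 7 had both DSS libraries below both controls, and the median was -0.16. Col1a1, the main fibrillar collagen, stood at 1870, 2301, 1672 and 1262 CPM (-0.40 ± 0.423), and Col15a1 at 872, 600, 455 and 325 CPM (-0.82 ± 0.404), which did not pass the test. Of 24 other matrix genes 22 were tested and 9 had a fold change above 0. Both DSS libraries lay below both controls for 7 of them, and the median was -0.12 (0.02 without control 1). Without control 1, 12 of 23 genes tested were above 0, and without the contractile cells 13 of 22 were. Fbln2, a fibulin of elastic fibres, stood at 279, 319, 138 and 116 CPM (-1.12 ± 0.323), and Mfap5, a microfibril protein, at 470, 476, 225 and 196 CPM (-1.06 ± 0.334). For both genes the controls were close and both DSS libraries were below them. Sparc, a collagen-binding protein, stood at 6537, 4573, 3798 and 3045 CPM (-0.61 ± 0.501). The basement membrane list had 14 genes tested and a median of 0.

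Among proteases, individual genes stood out and the list did not. Of 24 genes 21 were tested, with a median of 0.16. Adamts4, which cleaves the proteoglycans aggrecan and versican, stood at 28.9, 74.6, 149 and 267 CPM (2.08 ± 0.462, DESeq2 adjusted p = 0.0482; 1.57 without control 1). Mmp3, a matrix metalloprotease, stood at 2.62, 10.1, 33.1 and 54.3 CPM (2.76 ± 0.541). Both had both DSS libraries above both controls. Complement genes (9 tested, 2 above 0, median -0.22), retinoid genes (8 tested, 4 above 0, median -0.16) and prostaglandin genes (9 tested, 4 above 0, median -0.18) had small fold changes. Their medians without control 1 were 0.05, 0.1 and 0.02. Of the retinoid list, Aldh1a2, an enzyme that makes retinoic acid, stood at 85.2, 45.4, 27.6 and 28.2 CPM (-1.12 ± 0.393). Of 21 cytokine receptors 18 were tested and 15 had a fold change above 0, with a median of 0.32, and Tnfrsf11b, which encodes the decoy receptor osteoprotegerin, stood at 30.2, 61.5, 12 and 14.6 CPM (-1.70 ± 0.427).

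Hedgehog ligands are signals by which epithelium instructs the underlying stroma. Of 3 genes known to respond to them, Gli1 was on a list, and Ptch1 and Hhip were chosen after their values were seen, so no statement on the pathway rests on them. Gli1, the transcription factor that hedgehog induces (minus strand, chr10:127329882-127341974), stood at 45.9, 45.4, 8.02 and 10.4 CPM. The controls were nearly equal and the DSS libraries far below, with a log2 fold change of -2.23 ± 0.384 (edgeR adjusted p = 0.390). It was -2.20 without control 1, -3.13 without the contractile cells and -2.51 in the other gated fibroblasts. The counts of Gli1 were low, at 35, 45, 16 and 10 UMIs, and at 33, 31, 6 and 3 UMIs without the contractile cells. Ptch1, the receptor, stood at 383, 309, 143 and 189 CPM (-0.97 ± 0.338). Hhip stood at 182, 723, 302 and 144 CPM (-0.87 ± 0.611), overlapped, and had a fold change of 0.37 without control 2. Most of it lay in the contractile cells (values above), and without them its fold change was -1.16.

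Of the 10 genes with the largest fold changes below 0, 7 are known as epithelial genes. Spink4, a secreted protein of goblet cells, stood at 314, 381, 24.1 and 39.7 CPM (-3.38 ± 0.372, edgeR adjusted p = 0.0932, DESeq2 adjusted p = 3.0e-10). Agr2, which folds mucins, stood at 147, 122, 21.1 and 33.4 CPM (-2.24 ± 0.345). The mucin Muc2, which the marker lists kept out of the 10, stood at 392, 292, 108 and 71.0 CPM (-1.82 ± 0.384). The others of the 7 were Mptx1, Aqp8, Retnlb, Oit1 and Fabp2. Epithelial cells of the same libraries carried Spink4 at 6070, 2433, 1328 and 1001 CPM and Agr2 at 4034, 1121, 1319 and 1203 CPM, and in the other gated fibroblasts the fold changes were -3.08 and -2.08. Epithelial cells numbered 3235, 2374, 442 and 1502, and the part of free or co-captured epithelial RNA in these values was not tested. The remaining genes of the 10 were Igfbp6, Cdc42ep2, which stood at 94.4, 25.2, 13 and 16.7 CPM (-1.93 ± 0.611; -0.67 without control 1), and Ptgfr, a prostaglandin F receptor, at 65.6, 41.3, 6.02 and 30.3 CPM (-1.62 ± 0.631).

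Whether the DSS effect differed between Adamdec1 fibroblasts and other classes was tested as the interaction of class and group in edgeR. Kcnn3 and Fibin fibroblasts were the 1912 gated fibroblasts with at least 2 UMIs of Kcnn3+Fibin and fewer than 2 each of Adamdec1 and Bmp5+Bmp7+Sox6. Against them, 0 of 11233 genes passed an adjusted p of 0.05, 255 (2.27%) had an unadjusted p under 0.05, and DESeq2 called 1. Genes were named among those with unadjusted p under 0.05 and at least 50 CPM in the higher group of Adamdec1 fibroblasts. Genes on marker lists of other fibroblast kinds and cell types were left out. Among these, the largest differences were those of Tnfsf9 (2.17 ± 0.467 higher effect in Adamdec1 fibroblasts), Ccl7 (2.15 ± 0.691) and Id1, a target of BMP signals (1.61 ± 0.296). Id1 stood at 68.2, 68.6, 107 and 215 CPM in Adamdec1 fibroblasts. In the other direction were Itm2a (-1.58 ± 0.365), Creb5 (-1.36 ± 0.542) and Igfbp3 (-1.24 ± 0.286). Fam20a and Thbs3 followed, and Myocd and Cdc42ep3, of which the last, at 1.54, was -0.139 without the contractile cells. Without control 1 or control 2, 16 or 24 genes passed.

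Telocytes here were the 84 gated fibroblasts with at least 2 UMIs of Bmp5+Bmp7+Sox6 and fewer than 2 each of Adamdec1 and Kcnn3+Fibin. They numbered 6, 16, 37 and 25 per library. Adamdec1 positive cells with at least 2 UMIs of Bmp5+Bmp7+Sox6 were in neither class. Against telocytes, 18 of 8067 genes (0.223%) passed, 10 with a higher effect in Adamdec1 fibroblasts (0.124%) and 8 with a lower one (0.0992%). An unadjusted p under 0.05 was found for 429 genes (5.32%). Id2, a transcriptional regulator induced by BMP signals, stood at 78.7, 62.5, 168 and 206 CPM in Adamdec1 fibroblasts (1.49 ± 0.324) and at 5, 34, 30 and 12 UMIs in telocytes, and its effects differed by 2.56 ± 0.513 (edgeR adjusted p = 0.00102). Ccl2 differed by 3.03 ± 0.563 (edgeR adjusted p = 0.000197), with 0, 59, 1 and 54 UMIs in telocytes. The counts rested on few telocytes, above all the 6 of control 1. The number that passed was 44 without control 1, 68 without control 2, 0 without DSS 1, 3 without DSS 2, and 0 with DESeq2.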

How the data were processed

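Single-cell suspensions of mouse mid-colon were captured with a droplet kit that reads the 3′ end of transcripts. The deposited values are raw UMI counts per gene and barcode, made by the authors with Cell Ranger 6.1.1 and GRCm38, per the submitters' processing notes; the labels name v3 capture and v2 library reagents. Barcodes below 500 UMIs or 250 detected genes, or with over 25% of UMIs from mitochondrial genes, were dropped, leaving 9321, 10748, 12037 and 12250 of 10966, 13014, 12778 and 13093 barcodes (101051573 to 109472082 UMIs per library). Doublets were predicted with Scrublet in scanpy 1.11.5 and were kept, with their removal as an alternative. The cells and the gene lists were chosen with earlier results of these data known.

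UMIs were summed per library and class and tested, two-sided, with the quasi-likelihood test (R 4.3.3, edgeR 4.0.16; genes filtered with filterByExpr, TMM factors, Benjamini-Hochberg adjustment over all genes tested, threshold 0.05), without the 12 genes of the rule. DESeq2 1.42.0 was an alternative. Differences between classes were the interaction of class and group, with library as a covariate. In simulated counts with known changes, 9.78% of 2-fold and 76.7% of 4-fold changes were recovered in the comparison of DSS with control. The simulation gave each gene the trended spread for its level, with no spread of its own and no library that stood apart. The shares recovered may therefore be too high for these data. Adamdec1 fibroblasts were clustered with leidenalg 0.10.2 (20 components, 15 neighbours, resolution 0.5). The 222 contractile cells and their left-out version were defined after the data were seen. Named genes were the 10 largest changes in each direction among genes with unadjusted p under 0.05, separated groups and at least 50 CPM, as fewer than 5 passed the adjusted test, with 5 in each direction for differences between classes, the members of the lists, and the 20 highest and lowest against other gated fibroblasts; Phlda1, Apoe, Muc2, Ptch1 and Hhip were added after their values were seen. The rankings of changes and of differences between classes left out genes on marker lists of other fibroblast kinds and cell types. Genes whose symbol stands for several identifiers were not named. Alternatives changed the Adamdec1 threshold, the mitochondrial limit, the low-count filter, the scaling, the depth and the libraries used. Intervals are exact binomial (Clopper-Pearson, 95%) and cover counting error only.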

Additional observations from a re-analysis of the deposited data

Results flagged for a closer look

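The effect of DSS differed between Adamdec1 fibroblasts and telocytes for 18 genes by the edgeR test of the interaction itself, with adjusted p under 0.05. Of the genes named, Satb1 (difference in log2 fold change 3.43), Ccl2 (3.03), Cp (2.75), Apod (2.73) and Id2 (2.56) had the higher effect in Adamdec1 fibroblasts. Satb1 had 2, 16, 5 and 0 UMIs in telocytes, Cp 0, 25, 5 and 4, and Apod 0, 413, 48 and 1. Cxcl10 (-8.85) and Ccl8 (-8.74) had the lower effect. Both were at 0 UMIs in the telocytes of both controls and at 9 and 25 (Cxcl10) and 3 and 55 (Ccl8) UMIs in those of the DSS libraries, so the fitted size depends on the prior count and is no bound. In Adamdec1 fibroblasts Cxcl10 stood at 13.1, 227, 89.2 and 353 CPM and Ccl8 at 69.5, 77.7, 72.2 and 227 CPM, with overlapping groups.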

How the results depend on the processing

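The count of 0 genes in Adamdec1 fibroblasts stayed at 0 with 1 or 3 UMIs of Adamdec1 as the threshold, at most 10% mitochondrial UMIs, no doublets, no contractile cells (also without control 1), no TMM and thinned cells. It was 11 with DESeq2 and 116 with no filter on low counts, and 0 to 98 when 1 library was left out (98 without DSS 1, 78 without control 2, 2 without control 1). All 11 DESeq2 genes were among the 116. Against Kcnn3 and Fibin fibroblasts the count of 0 was 1 with DESeq2, 19 with no filter and 0 to 24 with 1 library left out. Against telocytes the count of 18 was 0 with 1 UMI of Adamdec1, 4 with 3 UMIs, 0 with DESeq2, 7 with no filter and 0 to 68 with 1 library left out. The difference in share was -7.75 to 0.822 points of gated fibroblasts and -0.337 to 1.22 points of kept cells with 1 library left out, and -0.108 points of kept cells at most 10% mitochondrial. The log2 fold change of Adamdec1 in all gated fibroblasts was -0.531 to -0.134 with 1 library left out. Of 851 values of 57 gene results under alternatives, 711 kept direction and side of the threshold, 138 passed it, 0 lost it and 2 reversed: Hhip (-1.61 to 0.37 with 1 library left out, above 0 without control 2) and the Cdc42ep3 difference (-0.139 without contractile cells). The cause was not tested.

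With the replicate number as a block, 169 genes passed in Adamdec1 fibroblasts, 11 of them the DESeq2 genes, and Adamdec1 in all gated fibroblasts had -0.324. Deviations of same-numbered libraries correlated at 0.346 over 9220 genes. With 2 pairs and no label that ties the numbers to mice or days, the numbers were not taken as pairs.

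At this depth and spread, changes of 2-fold were seldom recovered in simulated counts (9.78%, and 6.32% for the difference against Kcnn3 and Fibin fibroblasts). For the difference against telocytes, 0% of 2-fold and 6.45% of 4-fold changes were recovered. Genes that did not pass are therefore not shown to be equal.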
